A study of Homo sapiens with 8 samples.

Results

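The Notch pathway genes NOTCH1, NOTCH2, JAG1 and HES1 were followed in H3K27ac peak lists from A549 cells, an established human lung adenocarcinoma line. H3K27ac is acetylation of lysine 27 of histone H3, found at active promoters and enhancers. Members were all peaks within 50 kb of each gene, on the gene spans given for build hg19. Peaks of all lists that overlapped by 1 bp or more were joined into regions, which gave 38 regions around these genes out of 60669 on chromosomes 1 to 22 and X. The 38 regions held 27 peaks in control 1, 30 in control 2, and 35 and 30 in the siRNA-1 and siRNA-2 libraries.

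The cells carried a control siRNA or 1 of 2 different siRNAs targeting CEBPB, which encodes a transcription factor of the C/EBP family, and chromatin was taken 48 h after transfection. There were 2 control libraries and 1 library for each siRNA, and the siRNA-1 and siRNA-2 libraries formed the knockdown group (n = 2). The labels do not tie the 2 control libraries to separate cultures, and the spread within the knockdown group includes any difference between the siRNAs. How far CEBPB itself was lowered was not measured in these libraries. The 4 lists held 45537 to 48216 peaks over 61.7 to 70.4 Mb. The siRNA-1 list was the longest (70.4 Mb) and the siRNA-2 list the shortest (61.7 Mb), with 67.9 and 62.1 Mb in controls 1 and 2. The lists carry no read counts, so depth is unknown, and a missing peak means only that no peak was called.

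Notch receptors sit in the cell membrane and are cut after binding a Jagged or Delta ligand on a neighbouring cell. The freed intracellular part enters the nucleus, joins the DNA-binding protein RBPJ and its coactivator MAML, and switches on genes of the HES and HEY families. NOTCH1 and NOTCH2 are receptors, JAG1 is a ligand, and HES1 is a target gene that encodes a transcriptional repressor. In the airway epithelium the pathway is known for its part in the choice between secretory and ciliated cells.

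Each of the 4 genes had a peak at or beside its start in every library, so the bases before those starts are shown, to let the promoters be compared. They are RefSeq sequence of build GRCh38.p14, 5′ to 3′ along the gene and ending at the base before the start; all 4 genes matched by symbol. Capitals mark matches to TGGGAA, the core of the RBPJ site, on either strand.
NOTCH1 (GRCh38.p14 chr9:136546049-136546298, minus strand): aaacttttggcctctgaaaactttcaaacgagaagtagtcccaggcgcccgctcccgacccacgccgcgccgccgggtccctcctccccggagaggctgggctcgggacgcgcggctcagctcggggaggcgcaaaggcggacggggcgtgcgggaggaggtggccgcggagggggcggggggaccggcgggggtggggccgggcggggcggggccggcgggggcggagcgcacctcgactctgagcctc
NOTCH2 (GRCh38.p14 chr1:120069663-120069912, minus strand): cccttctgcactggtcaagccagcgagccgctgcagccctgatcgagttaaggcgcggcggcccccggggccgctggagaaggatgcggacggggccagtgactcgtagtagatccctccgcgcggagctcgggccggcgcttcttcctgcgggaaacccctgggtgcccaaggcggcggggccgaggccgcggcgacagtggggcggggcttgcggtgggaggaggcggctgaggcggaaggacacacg
JAG1 (GRCh38.p14 chr20:10674000-10674249, minus strand): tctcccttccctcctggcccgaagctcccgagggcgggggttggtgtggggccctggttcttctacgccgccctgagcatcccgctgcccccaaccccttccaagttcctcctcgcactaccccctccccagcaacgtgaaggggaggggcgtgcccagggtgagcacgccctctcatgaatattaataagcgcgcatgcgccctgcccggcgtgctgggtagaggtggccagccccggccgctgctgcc
HES1 (GRCh38.p14 chr3:194135898-194136147, plus strand): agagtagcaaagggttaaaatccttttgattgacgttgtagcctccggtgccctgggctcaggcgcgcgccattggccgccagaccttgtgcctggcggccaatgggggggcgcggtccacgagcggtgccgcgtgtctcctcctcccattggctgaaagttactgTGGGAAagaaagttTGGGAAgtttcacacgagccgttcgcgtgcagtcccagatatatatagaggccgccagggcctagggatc

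HES1 was the only one of these promoters with the RBPJ core, and it had 2 copies in the same orientation, at 84 to 79 and at 70 to 65 bases before the start. The core occurs in the 250 bases before the start in 20.8% of 35116 RefSeq entries. None of the 4 promoters matched TTNNGCAA (C/EBP, 9.05% of entries), TGANTCA (AP-1, 6.57%) or TGACNNNGC (antioxidant response element, 10.9%), all searched on both strands. This says only that these letters are not in these windows. All 4 promoters were at or above the median entry in G and C content: 76.0% in NOTCH1, 72.8% in NOTCH2, 68.4% in JAG1 and 59.2% in HES1, against 58.0%. CpG dinucleotides numbered 33, 29, 17 and 18 in the same order, against a median of 11.

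The genes differed widely in how much of their surroundings was called. JAG1, the ligand gene (hg19 chromosome 20, 10618000 to 10655000, minus strand), had the largest share, with 20.1 to 23.3% of its 137 kb window under peaks in the 4 libraries. The target gene HES1 (chromosome 3, 193854000 to 193856000, plus strand) had 14.4 to 18.9% of 102 kb. The receptor gene NOTCH1 (chromosome 9, 139389000 to 139440000, minus strand) had 9.18 to 11.4% of 151 kb. NOTCH2 (chromosome 1, 120454000 to 120612000, minus strand) had 0.225 to 0.784% of 258 kb. These 4 ranges did not overlap, so the order of the genes was the same in every library. NOTCH2 has partial copies elsewhere on chromosome 1, described below. How reads that fit several places were treated is not given, so its low share need not mean little acetylation.

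Of the 38 regions, 20 were called in all 4 libraries. Lost regions, called in both controls and with neither siRNA, numbered 1 of 22 called in both controls, where 13.3% of all such regions in the genome were lost. Gained regions, called with both siRNAs and in neither control, numbered 2 of 23, where the genome had 13.6%. The other 15 regions had calls in other combinations, 12 of them in a single library and 5 of those with siRNA-1 alone. Genome shares were not computed for these combinations, and the siRNA-1 list was the longest, so they are not read as a feature of these genes. The lost and gained counts rest on single libraries. Lost regions numbered 6 without control 1, 3 without control 2 and 2 without siRNA-2, and gained regions 4 without siRNA-1 and 8 without siRNA-2, since fewer lists must then match.

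Among the 20 regions called everywhere, 6 had shorter calls with both siRNAs than in both controls and 6 had longer calls. Those are 6 of 20 each, beside 25.6% shorter and 26.9% longer over the 24133 such regions of the genome. The members' shares are near these backgrounds and do not set them apart. The median ratio of called length, knockdown over control, was 0.996 over the 20 regions and 1.01 over the genome. Regions whose calls differed by at least 1.5 times without overlap numbered 1 shorter (genome 10.9%) and 2 longer (genome 11.9%). Shorter regions numbered 12 without siRNA-1, and longer regions 11 without siRNA-2.

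The shorter and longer regions were unevenly divided between the genes, and so were the regions called in all 4 libraries. Those numbered 7 at NOTCH1, 6 at JAG1, 6 at HES1 and 1 at NOTCH2. Over the genome 25.6% of such regions were shorter and 26.9% longer. HES1 held 4 of the 6 shorter regions and no longer one, and its window was called over fewer bases after knockdown. NOTCH1 held 4 of the 6 longer regions and 1 shorter one. JAG1 held 1 of each, and the NOTCH2 window had 1 region called in all 4 libraries, with a longer call. No test was made of this division of shorter and longer regions.

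HES1 had 18970 bp under peaks in control 1 and 19237 bp in control 2, against 14863 bp with siRNA-1 and 14663 bp with siRNA-2. Both knockdown libraries lay below both controls, and the libraries within each group lay close together. The means were 19103.5 ± 189 bp in controls and 14763 ± 141 bp after knockdown (SD, n = 2 each), a difference of -4340.5 bp or -22.7%. Its size was above the SD of either group, but each SD rests on 2 libraries not shown to be biological replicates. The difference was -3959.5 bp after the lists were reduced to equal total called length. It was -1179.5 bp in a window of 20 kb on each side, which leaves out the regions farther upstream. The exact permutation p (two-sided) was 0.33, the smallest that this test can give for 2 against 2, and 0.444 after Benjamini-Hochberg adjustment over the 4 windows. Both knockdown libraries lay below both controls in 27.7% of 9624 windows of 150 kb that tile the genome and hold a peak in every library. The difference at HES1 lay between the 10th and 25th percentiles of those windows (-42.0% and -18.8%), so such a shortfall was common among them. Those windows were not matched to the 102 kb HES1 window in size or in the share of bases called. How common it is among windows as densely called as HES1 was not tested.

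NOTCH1 had 13970 and 13855 bp in the controls, 17220 bp with siRNA-1 and 14510 bp with siRNA-2. Both knockdown libraries lay above both controls, but the siRNAs lay much further apart than the controls did. The means were 13912.5 ± 81.3 and 15865 ± 1916 bp (SD, n = 2 each), a difference of 1952.5 bp, about the size of the SD after knockdown (exact permutation p = 0.33, adjusted 0.444). It was 597.5 bp without siRNA-1, 3307.5 bp without siRNA-2 and 1580 bp after the lists were reduced to equal total called length. In a window of 20 kb on each side it was -1465 bp. That window leaves out the longer regions far upstream. It keeps a region 12.6 kb upstream that was lost, with a mean difference of -1475.5 bp.

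JAG1 had 27975 and 27516 bp in the controls, 31948 bp with siRNA-1 and 27926 bp with siRNA-2, so the groups overlapped (exact permutation p = 0.667, adjusted 0.667). The difference of 2191.5 bp rested on siRNA-1: it was 180.5 bp without that library and 4202.5 bp without siRNA-2. It was 1061.5 bp with 20 kb on each side and 2058 bp at equal total called length. NOTCH2 had 780 and 580 bp in the controls, 2023 bp with siRNA-1 and 783 bp with siRNA-2 (exact permutation p = 0.33, adjusted 0.444). Its difference of 723 bp was 103 bp without siRNA-1, 1343 bp without siRNA-2 and 119 bp with 20 kb on each side. At equal total called length the NOTCH2 difference was 323.5 bp. Both knockdown libraries lay above both controls at NOTCH1 and NOTCH2, as in 31.1% of the 150 kb windows of the genome. Those windows were not matched to these genes in the share of bases called.

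**Figure D1:**
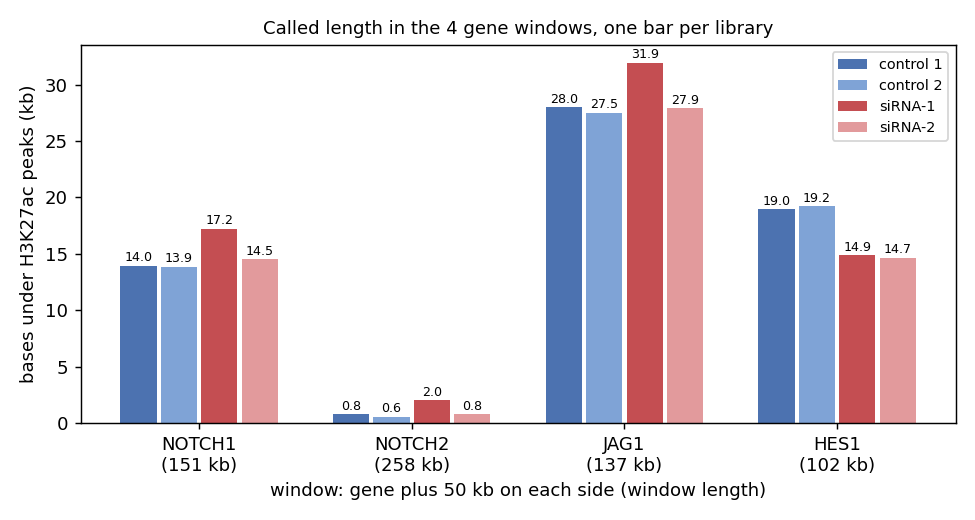
Bases under H3K27ac peaks (kb) in each gene window, with 1 bar for each library: controls in blue, siRNA-1 and siRNA-2 in red. The HES1 bars are 18970 and 19237 bp in the controls against 14863 and 14663 bp after knockdown, while the siRNA-1 bar stands above the other 3 at NOTCH1, NOTCH2 and JAG1.

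Of the bases called in both controls around HES1, 2265 of 16913 (13.4%) were called with neither siRNA, close to 12.4% over the genome. In the other direction, 0 of the 12817 bases called with both siRNAs were new to both controls, where the genome had 12.6%. Neighbouring bases are not independent, so no interval is given for these shares. At NOTCH1 the shares were 11.3% lost and 16.8% gained, and at JAG1 0.736% and 7.46%. The overlap of called bases (Jaccard index) at NOTCH1 was 0.778 between the controls and 0.785 between the siRNAs, above the 0.567 to 0.667 between a control and an siRNA. At HES1 these were 0.794 and 0.767, against 0.689 to 0.746. The index was not computed over the genome, so it is unknown whether this order is general. At JAG1 the ranges met: 0.879 and 0.816 within the groups and 0.775 to 0.820 between them. At NOTCH2, with few bases called, the highest overlap was between groups, 0.913 for control 1 and siRNA-2, against 0.327 between the controls and 0.386 between the siRNAs. Of its bases called in both controls, 0 of 335 were lost, and 4.6% of the 782 called with both siRNAs were gained.

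Distances below are from the gene start. The gene spans were given to 1 kb, so a distance is no finer than that, while lengths are exact. Exons and introns were not assigned here. Fold enrichments are the authors' values at a peak's summit in its own list. They depend on each library's depth and are given side by side without comparing lists, as are the percentiles of peaks within their lists.

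HES1 had 6 regions called in all 4 libraries: 4 upstream, 1 over the gene and 1 just past its end. The most shortened lay 34.3 kb upstream (chromosome 3, 193818555 to 193820889). It was called over 2189 bp in control 1 and 1962 bp in control 2, against 365 bp with siRNA-1 and 429 bp with siRNA-2. The controls and the knockdown libraries stood far apart, at 2075.5 ± 161 and 397 ± 45.3 bp (SD, n = 2 each), 80.9% shorter after knockdown. Its peaks stood at percentiles 64.2 and 69.7 of the control lists by −log10 q, and at 6.97 and 7.29 of the siRNA-1 and siRNA-2 lists. With only peaks of a −log10 q of 10 or more, this region had no call with either siRNA and would be counted as lost.

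The region 23.6 kb upstream of HES1 (chromosome 3, 193828560 to 193832169) had the highest fold enrichment of the window in both control lists, 41.3 and 44.5. In the siRNA-1 and siRNA-2 lists it ranked 3 in the window, at 20.9 and 25.5. Its called length was 3062 and 3610 bp in the controls and 1969 and 2590 bp after knockdown, 31.7% shorter with no overlap between the groups. The highest summit lay 23.9 kb upstream in both controls, and 23 and 23.1 kb upstream with siRNA-1 and siRNA-2. A region 14.1 kb upstream (chromosome 3, 193839051 to 193840722) was called over 1494 and 1603 bp in the controls and 1354 and 1323 bp after knockdown, 13.6% shorter. By −log10 q its peaks stood at percentiles 80.3 and 80.7 of the control lists, and at 56.4 and 55.9 of the siRNA-1 and siRNA-2 lists. Fold enrichments were 18.4 and 17.2 in the controls and 8.65 and 7.26 after knockdown.

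The region over the start of HES1 was also shorter after knockdown (chromosome 3, 193849864 to 193856220). It was called over 5942 and 5504 bp in the controls and 4637 and 5078 bp after knockdown, 15.1% shorter. The mean difference was -865.5 bp, and -270.5 bp after the lists were reduced to equal total called length. Its highest summit lay 1.6 to 1.7 kb upstream in all 4 lists, with fold enrichments of 36.1 and 21.2 in the controls and 32.1 and 34.9 after knockdown. The region held 2 peaks in each control list and 3 in each siRNA list. The 2 remaining regions overlapped between the groups. The one 46.0 kb upstream was called over 2960 and 3217 bp in controls and 3286 and 2545 bp after knockdown. The one beyond the gene end, centred at 5.4 kb (chromosome 3, 193857847 to 193860905), had 3055, 2540, 2921 and 2698 bp and led the window in both knockdown lists, with fold enrichments of 38.9 and 42.4. No peak lay between it and the downstream edge of the window in any list.

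**Figure D2:**
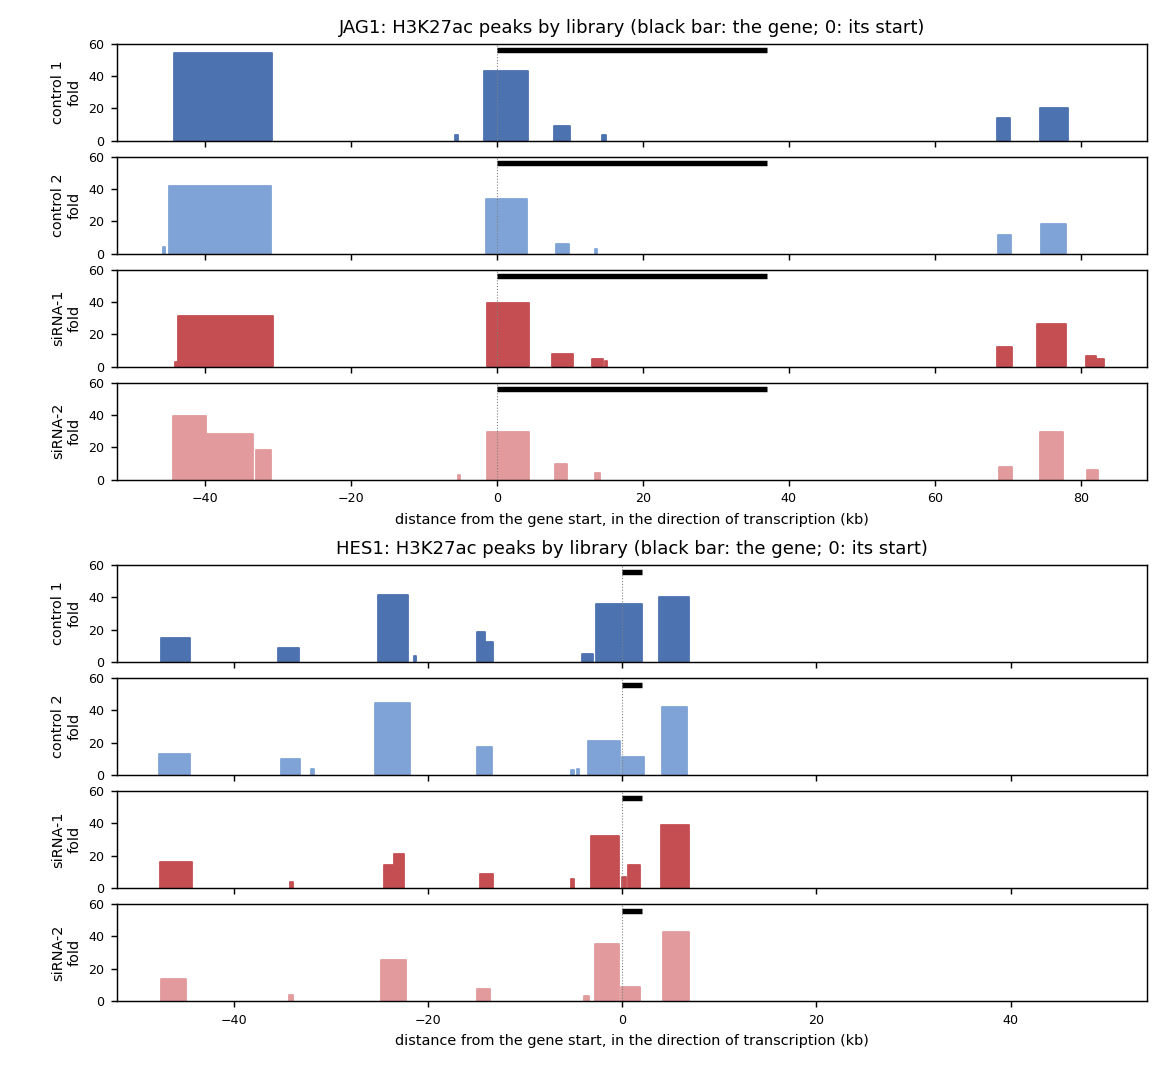
H3K27ac peaks by library around JAG1 (top) and HES1 (bottom), as distance from the gene start (kb). Each block spans 1 peak and is as high as the fold enrichment at its summit in that list, and the black bar is the gene. The region 34.3 kb upstream of HES1 narrows from 2189 and 1962 bp in the controls to 365 and 429 bp, and a block past 80 kb appears at JAG1 with both siRNAs only.

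NOTCH1 carried a mixed pattern, with longer calls at 3 regions upstream and a lost region between them. The lost region lay 12.6 kb upstream (chromosome 9, 139451720 to 139453474). It was called over 1500 bp in control 1 and 1451 bp in control 2, with fold enrichments of 6.37 and 9.06, and had no peak with either siRNA. Its peaks stood at percentiles 47.2 and 63.6 of the control lists by −log10 q, so it was of middling strength. It was still lost with only peaks of a −log10 q of 10 or more.

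Further upstream of NOTCH1, more bases were called after knockdown. The region 26.4 kb upstream (chromosome 9, 139464691 to 139468032) had 1337 and 567 bp in the controls and 3342 and 2191 bp after knockdown. Its mean was 2.91 times that of the controls, and the groups did not overlap. In the control lists its peaks stood at percentiles 35.1 and 47.9 by −log10 q, and in the siRNA-1 and siRNA-2 lists at 88.2 and 79.6. Beside it, a region 30.8 kb upstream (chromosome 9, 139470114 to 139471433) was gained, with 1320 bp and 910 bp called at fold enrichments of 8.29 and 10.7. The region 22.9 kb upstream (chromosome 9, 139461856 to 139463951) had 1713 and 1624 bp in the controls and 1982 and 2081 bp after knockdown.

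Nearer the NOTCH1 start, the region 5.3 kb upstream had 2076 and 1711 bp in the controls and 2436 and 2119 bp after knockdown. Its summit lay 4.9 kb upstream in both controls and 5.4 and 5.3 kb upstream with siRNA-1 and siRNA-2. By −log10 q its peaks stood at percentiles 58 and 61.1 of the control lists, and at 85.7 and 84.2 of the siRNA-1 and siRNA-2 lists. Fold enrichments were 7.35 and 7.86 in the controls and 26 and 17.7 after knockdown. The region next to the start, 1.3 kb upstream (chromosome 9, 139440527 to 139441980), had 1357, 1218, 1347 and 1186 bp in controls, siRNA-1 and siRNA-2 in turn, and the groups overlapped. A small region at the start itself was called in control 2 and with both siRNAs, at fold enrichments of at most 4.70.

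Inside the gene, the region 24.8 kb past the start (chromosome 9, 139413409 to 139416935) was the highest of the window in both controls, at 30.9 and 36.9, and also with siRNA-1 at 51.6. With siRNA-2 it had 28.9, just under the 29.4 of the region 22.9 kb upstream. It was called over 3497 and 3498 bp in the controls and 3468 and 2885 bp after knockdown, formally shorter, by 9.18% on average and mostly with siRNA-2. Past the gene end, 2 regions lay on the side of the neighbouring genes C9orf163 and SEC16A. The spans of those genes were not set against the peaks, so these regions may belong to them. The region at 61.3 kb (chromosome 9, 139377782 to 139379616) had fold enrichments of 19 and 15 in the controls. After knockdown these were 27 and 24.3, with overlapping lengths. The region at 62.8 kb had 666 and 563 bp in the controls and 745 and 802 bp after knockdown.

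**Figure D3:**
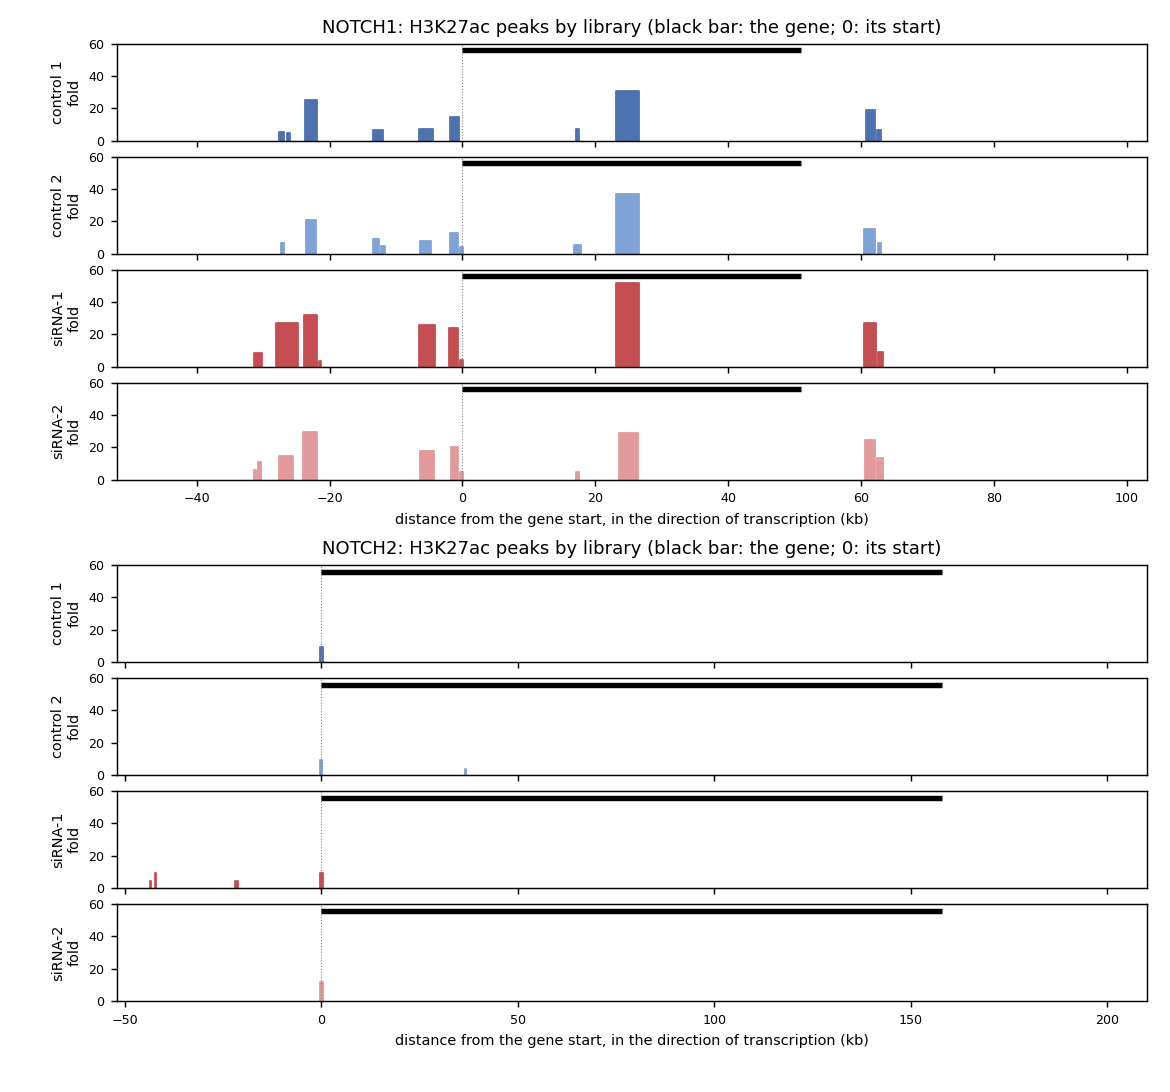
H3K27ac peaks by library around the receptor genes NOTCH1 (top) and NOTCH2 (bottom), drawn as distance from the gene start (kb) with block height as fold enrichment in that list and the gene as a black bar. At NOTCH1 the block 12.6 kb upstream is seen in the 2 controls only and that 30.8 kb upstream with the 2 siRNAs only, and NOTCH2 has a block at its start in all 4 lists.

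The edge of the NOTCH1 window fell between regions of opposite pattern. The gained region was the last one inside, 18.6 kb from the upstream edge. The next one out, 0.4 kb beyond the edge, had 1630 and 918 bp in the controls and no peak with either siRNA, and it is not among the 38.

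JAG1 held the widest peak of the 4 windows. It lay 30.6 to 44.9 kb upstream of the start (chromosome 20, 10685605 to 10699886) and ran unbroken over 13.4 kb in control 1 and 14.0 kb in control 2. These peaks were at percentiles 99.5 and 99.7 of their lists by width. With siRNA-1 the region held 1 peak of 13 kb and 1 of 0.3 kb, and with siRNA-2 it held 3 peaks of 4.6, 6.3 and 2.1 kb. The called length differed little, at 13373 and 14016 bp in the controls and 13365 and 12933 bp after knockdown, 3.98% shorter on average. The region was counted among the shorter ones, though siRNA-1 (13365 bp) lay barely under control 1 (13373 bp). Fold enrichments were 54.5 and 41.7 in the controls and 31.6 and 39.2 after knockdown. The highest summit lay 37.5 kb upstream in both controls, at 36.8 kb with siRNA-1 and at 43.1 kb with siRNA-2.

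The region over the JAG1 start (chromosome 20, 10650559 to 10656698) was nearly equal in length in all 4 libraries, with 5984 and 5672 bp in the controls and 5756 and 5762 bp after knockdown. Its fold enrichments were 43.0, 34.0, 39.1 and 29.2 in the same order. Its summit lay 0.2 to 0.3 kb upstream in every list. Within the gene, the region at 9.0 kb had 2101 and 1870 bp in the controls, 2867 bp with siRNA-1 and 1624 bp with siRNA-2, on either side of the controls. A weak region at 14.0 kb (chromosome 20, 10639900 to 10642004) had 471 and 342 bp in the controls and 1869 and 743 bp after knockdown, 3.21 times as long on average. The mean difference of 899.5 bp was 336.5 bp without siRNA-1 and 1462.5 bp without siRNA-2. None of its peaks reached a −log10 q of 10, and its fold enrichments were 2.85 to 5.05.

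Past the JAG1 end, on the side of the neighbouring gene SLX4IP, regions at 69.5 kb and 76.1 kb were called everywhere. Their lengths overlapped between the groups. The span of SLX4IP was not set against the peaks, so regions on this side may lie inside that gene. The one at 76.1 kb (chromosome 20, 10576792 to 10580964) had 3794 and 3442 bp in the controls and 3920 and 3180 bp after knockdown, at fold enrichments of 20.1, 18.3, 26.4 and 29.5. Beyond them lay the second gained region, at 81.9 kb (chromosome 20, 10571887 to 10574246). It was called over 2143 bp with siRNA-1 and 1607 bp with siRNA-2, at fold enrichments of 6.46 and 5.87, and had no peak in either control. These were peaks near the middle of their lists, at percentiles 50.5 and 50 by −log10 q.

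NOTCH2 differed from the other 3 genes in having acetylation called in all 4 libraries at its start alone. That region (chromosome 1, 120611533 to 120612349) had 780 and 335 bp in the controls and 815 and 783 bp after knockdown. Both knockdown libraries lay above both controls, though by 3 bp in the case of siRNA-2 and control 1, and the controls were far apart. Fold enrichments were 9.19 and 9.49 in the controls and 9.45 and 11.8 after knockdown, with summits 0.1 to 0.2 kb from the start. Upstream, 4 small regions 21.3 to 43.5 kb away were called with siRNA-1 alone, and inside the gene 1 small region at 36.7 kb was called in control 2 alone.

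Partial copies of NOTCH2, the NOTCH2NL genes, lie elsewhere on chromosome 1. In GRCh38.p14 the 300 bases around the NOTCH2 start share an identical stretch of 246 bases with the NOTCH2NLA entry, and of 229, 189 and 148 bases with NOTCH2NLB, NOTCH2NLC and NOTCH2NLR. Another NOTCH2NLB entry shares no more than 8 bases. The other stretches are longer than the 101-base reads, so in that build reads from such a stretch would fit more than 1 place. The peaks are on hg19, whose sequence was not used here. How such reads were placed is not given in the sources used here. Their part in the NOTCH2 peak, or in the low called share of its window, was not tested.

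**Figure D4:**
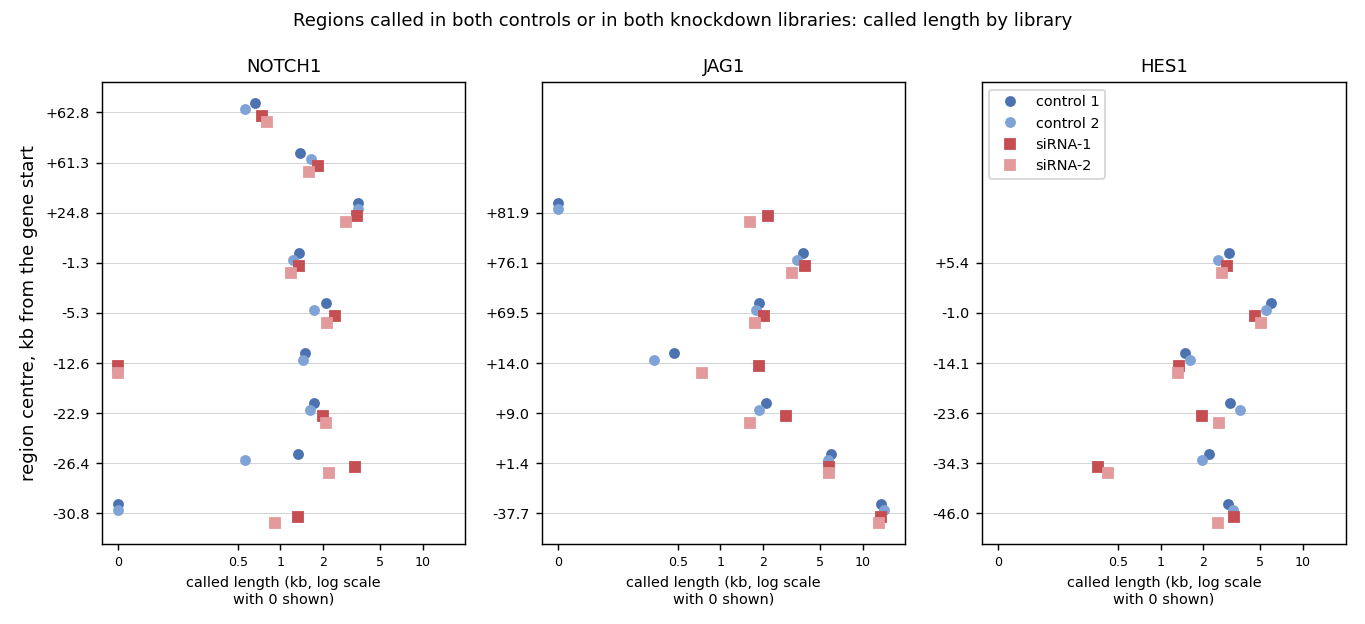
Called length (kb, log scale with 0 shown) in each library for the regions of NOTCH1, JAG1 and HES1 that were called in both controls or in both knockdown libraries, ordered by distance of the region's centre from the gene start (kb). Circles are controls and squares are siRNA-1 and siRNA-2; the squares sit left of the circles in 4 of the 6 HES1 regions, and points at 0 mark the lost region at NOTCH1 and the gained regions at NOTCH1 and JAG1.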

How the data were processed

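H3K27ac chromatin immunoprecipitation was followed by sequencing of 101-base single-end reads, per the labels' protocols. The submitters' processing notes name BWA 0.7.17, SAMtools 1.7.0, MACS2 2.2.7.1 and hg19; options and any role of the 4 input libraries are not given there, and inputs were not analysed here. Each library had its own deposited list with, per peak, a fold enrichment (a linear ratio), a −log10 p, a −log10 q and a score. All are the authors' values; the score was not used. Lists were limited to chromosomes 1 to 22 and X and joined at 1 bp of overlap with Python 3.11.15, and the steps were tested on simulated lists. Called length is the number of bases under peaks, clipped to the window. Windows were compared by an exact permutation test (SciPy 1.17.1, two-sided) with Benjamini-Hochberg adjustment over the 4 windows. That test cannot give a p below 0.33 with 2 libraries against 2, and single regions were described without a test.

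Regions named with values were the start region of each gene, all lost or gained regions, the 3 highest of each window by fold enrichment in both libraries of a group, and those differing at least 1.5 times in called length. Others that are named were chosen after their values were seen. The members and lists were chosen with earlier results of these data known. Strand and neighbours came from RefSeq (GRCh38.p14), whose coordinates were not set against the peaks. Other Notch genes were not placed on hg19 here. Alternatives were a −log10 q of 10 or more, windows of 20 and 100 kb, merging within 1 kb, a cover of 50%, equal called length and leaving out each library.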

Additional observations from a re-analysis of the deposited data

How the results depend on the processing

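Of 36 alternative values for the called length of the 4 windows, 35 kept their direction, though some of them, named below, could not have changed it. The exact permutation test used could pass no threshold with 2 libraries a group. The 1 value that changed direction was NOTCH1 with 20 kb on each side, at -1465 bp. HES1 was -1179.5 bp in that narrower window, which drops its regions farther upstream, and -4076 bp with only peaks of a −log10 q of 10 or more. Without each library in turn the difference ranged from 597.5 to 3307.5 bp at NOTCH1, 103 to 1343 bp at NOTCH2, 180.5 to 4202.5 bp at JAG1 and -4474 to -4207 bp at HES1. Where the groups did not overlap (NOTCH1, NOTCH2 and HES1), leaving out 1 library cannot reverse the direction. Lost regions numbered 2 under that −log10 q limit, 2 where 50% of a region had to be covered, and 3 with 100 kb on each side, where more regions enter. With 20 kb on each side, where fewer enter, gained regions numbered 0 and shortened regions 3. With 50% cover, lengthened regions numbered 3; the cause was not tested. Leaving out 1 library at a time gave 1 to 6 lost, 2 to 8 gained, 6 to 12 shortened and 5 to 11 lengthened regions. Both groups are numbered 1 and 2 in the labels, which do not say that a number marks a shared culture. Deviations of same-numbered libraries from their group means correlated at 0.0642 over 24133 regions. With the replicate number as a block, the differences were 1952.5, 723, 2191.5 and -4340.5 bp (exact permutation p = 0.5 each, the smallest that 2 pairs can give). They are the same by construction, since averaging within pairs gives the same mean difference. In that setting 1 region was lost, 2 gained, 7 shortened and 6 lengthened. Peak lists without depth limit what a missing peak can show.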
